A study of Mus musculus with 2 samples.

Results

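The striated muscle microRNAs are a small set of genes known chiefly from heart and skeletal muscle, and their counts are given here in fetal mouse lung. The set was chosen by gene name and holds 8 genes: Mir1a-1, Mir1a-2, Mir133a-1, Mir133a-2, Mir133b, Mir206, Mir208a and Mir208b. Of these, 7 have a row among the 1973 microRNA genes of the count tables, and no row matched the identifier of Mir1a-2. Of the 1973 identifiers, 1894 matched the annotation used for names, so a row under another identifier is possible. The tables come from small RNA (under 30 bases) of whole lungs of B6NCrl embryos at embryonic day 16.5, healthy and of both sexes pooled. There is a single group with 2 libraries, labelled biological replicates 1 and 2. Replicate 2 was made from the lungs of 41 embryos, and the labels describe replicate 1 as a pool without its size. No treatment or altered allele is named for either library.

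MicroRNAs guide silencing complexes to messenger RNAs, mainly by pairing of the seed, bases 2 to 8 of the mature strand. miR-1 promotes the differentiation of muscle cells and miR-133a their proliferation, and miR-206, which carries the seed of miR-1, also supports the regrowth of neuromuscular junctions. miR-208a regulates the balance of myosin types in the heart. The miR-1/133a pairs are transcribed in both heart and skeletal muscle, while the miR-206/133b pair belongs to skeletal muscle. miR-208a and miR-208b lie in introns of the cardiac myosin heavy chain genes Myh6 and Myh7, and Myh7 is also the myosin of slow skeletal fibres. The muscle of the airways and most lung vessels is smooth muscle, but in mice the pulmonary veins carry a sleeve of cardiac muscle cells.

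The mature strands behind the counted genes are shown with the seed in capitals, because the seed groups them and single bases decide whether a read can be placed. They are RefSeq sequences on build GRCm38.p6, written 5′ to 3′.
miR-208a-3p: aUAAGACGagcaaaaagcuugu
miR-208b-3p: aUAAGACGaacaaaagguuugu
miR-499-5p: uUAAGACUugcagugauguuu
miR-206-3p: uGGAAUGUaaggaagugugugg
miR-133b-3p: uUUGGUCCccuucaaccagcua
miR-1a-1-5p: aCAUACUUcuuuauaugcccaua
The heart-type strands miR-208a-3p and miR-208b-3p share their seed, and no other of the 1738 mature sequences compared holds it. They are identical at 19 of 22 bases and differ by G10A, A16G and C18U (miR-208a base, position from the 5′ end, miR-208b base). miR-499-5p, from an intron of the related myosin gene Myh7b, has the same seed letters but for G8U. The seed of miR-206-3p was found in 3 of the 1738 sequences, the others being miR-6349 and miR-6382, whose genes had at most 1 count in a library. The main strand of miR-1a was not among the sequences compared. Between the skeletal-type strands miR-206-3p and miR-133b-3p only 4 of 22 bases match at the same position.

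Mir208a was the most abundant member in replicate 1 and Mir206 in replicate 2. Mir208a (ENSMUSG00000065432.1, chromosome 14 at 54949060 to 54949142, minus strand, mm10) lies in an intron of Myh6 and had 3420 counts in replicate 1 and 1338 in replicate 2. Scaled to a total of 1e+06 gene counts (CPM), these are 536 and 324 CPM. Mir206 (ENSMUSG00000065559.1, chromosome 1 at 20679010 to 20679082, plus strand) overlaps an exon of the long noncoding RNA gene Gm28653 and had 1875 and 2653 counts, or 294 and 643 CPM. Mir208b (ENSMUSG00000077928.1, chromosome 14 at 54975700 to 54975776, minus strand), in an intron of Myh7, had 1434 and 826 counts, or 225 and 200.3 CPM. Mir133b (ENSMUSG00000065480.1, chromosome 1 at 20682769 to 20682887, plus strand) also overlaps an exon of Gm28653 and had 21 and 41 counts, or 3.29 and 9.94 CPM. The remaining members with a row, Mir1a-1, Mir133a-1 and Mir133a-2, had 0 counts in both libraries.

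Gene counts totalled 6376715 in replicate 1 and 4123748 in replicate 2. A count of 0 was taken to allow up to 3 counts, or 0.470 and 0.727 CPM. The exact Poisson 95% interval, used for counts above 0, would reach 0.578 and 0.895 CPM at a count of 0. A gene with at least 10 counts in each library is called detected, which holds for 4 of the 7 members and 347 of the 1973 genes. Exact Poisson intervals at 95% for Mir133b run from 2.04 to 5.03 CPM in replicate 1 and from 7.13 to 13.5 CPM in replicate 2, and for Mir206 from 281 to 308 and from 619 to 668 CPM. These intervals and limits reflect the counting error of reads in a library alone. Copies of a molecule made by PCR were not marked, so they may be too narrow even for that. The labels give both libraries the same donor entry and do not say how the pools were made, so the spread between the libraries may be partly technical. In whole tissue, fewer cells of a type and less of its RNA per cell cannot be told apart.

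**Figure D1:**
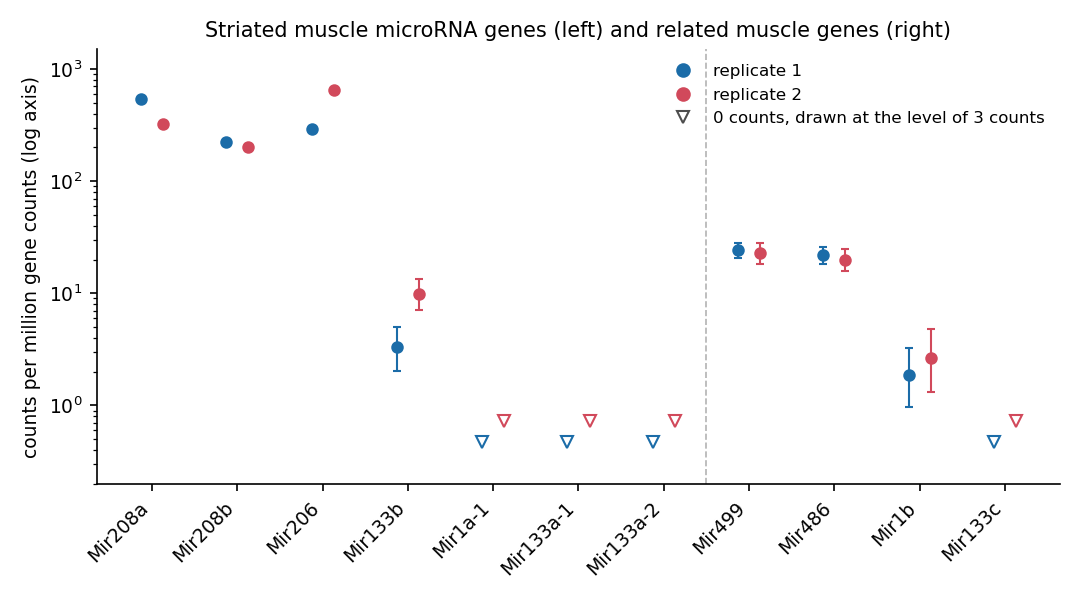
Level in CPM (log axis) of the 7 members with a row and of 4 other muscle genes in each library, with exact Poisson 95% intervals; open triangles mark 0 counts and are drawn at the level of 3 counts. Mir208a, Mir208b and Mir206 stand between 200.3 and 643 CPM, Mir133b stays under 10 CPM, and 3 members have no counts.

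Together the members held 0.106% of gene counts in replicate 1 and 0.118% in replicate 2 (mean 0.112% ± 0.00845, SD, n = 2). By mean level the order was Mir206 (469 CPM ± 247), Mir208a (430.4 ± 150), Mir208b (213 ± 17.4) and Mir133b (6.62 ± 4.70; all SD, n = 2). The means of Mir206 and Mir208a differ by less than the SD of either, and their order was opposite in the libraries. Mir208b lay below both of them and above Mir133b in each library. Among the 347 detected genes, Mir206 ranked 126th, Mir208a 130th, Mir208b 162nd and Mir133b 305th. Directly above and below Mir206 by mean stood Mir320 (474 CPM) and Mir106a (467 CPM), Mir208a stood between Mir25 (448) and Mir494 (425), Mir208b between Mir185 (217) and Mir669l (212), and Mir133b between Mir7655 (6.62) and Mir1930 (6.52). The printed mature strands are 21 to 23 bases long, and levels of different genes were compared without a length correction. No correction was made for other differences between strands, so these are orders of read counts and not of molecules.

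For comparison, Mir143, the abundant microRNA of smooth muscle, had 70224 CPM in replicate 1 and 72270 in replicate 2. All 6 epithelial markers, Mir200a, Mir200b, Mir200c, Mir141, Mir429 and Mir375, were detected, with a summed level of 35211 and 36766 CPM, and the endothelial Mir126a had 87277 and 79120 CPM. The members' sum was 1059 and 1178 CPM, below Mir143, Mir126a and the epithelial sum in each library, while Mir200a, the lowest epithelial marker, had 1076 and 979 CPM.

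Between the libraries, the skeletal-type Mir206 and Mir133b were higher in replicate 2 and the heart-type Mir208a was higher in replicate 1. The other heart-type member, Mir208b, differed little. Mir206 was 2.19-fold higher in replicate 2 (95% interval 2.06 to 2.32, adjusted p = 9.56e-150 by an exact binomial test). Its genomic neighbour Mir133b was 3.02-fold higher there (1.74 to 5.38, adjusted p = 7.69e-05, exact binomial test). Mir208a was 1.65-fold higher in replicate 1 (1.55 to 1.76, adjusted p = 4.46e-57, exact binomial test). Mir208b was 1.12-fold higher in replicate 1 (1.03 to 1.22, adjusted p = 0.0193, exact binomial test), no more than the median difference of all detected genes (1.12-fold). P-values were adjusted by Benjamini-Hochberg over the 347 detected genes. They compare the reads of these 2 libraries, hold counting error only and say nothing of conditions.

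All 4 detected members passed, 2 in each direction, where 47% of all detected genes passed: 16.4% were higher in replicate 1 and 30.5% in replicate 2. Passing was therefore common. A difference of at least 1.5-fold that also passed was found in 5.19% of detected genes and in 3 of the 4 members, Mir206, Mir133b and Mir208a. The median difference in either direction was 1.12-fold over the 347 genes and 1.90-fold over the 4 members. Only 7 of the 347 genes had a larger log2 difference than Mir206, 3 a larger one than Mir133b, 22 a larger one than Mir208a, and 164 a larger one than Mir208b. Of 95 genes with a mean between 100 and 1000 CPM, 5 differed by at least 1.5-fold: Mir206, Mir208a, Mir122, Mir196b and Mir451a. The balance of calls over all genes moved with the scale, from 57 and 106 (higher in replicate 1 and in replicate 2) to 74 and 84 with edgeR's TMM factors and to 78 and 75 with DESeq2's size factors, while each member's direction was the same under both.

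**Figure D2:**
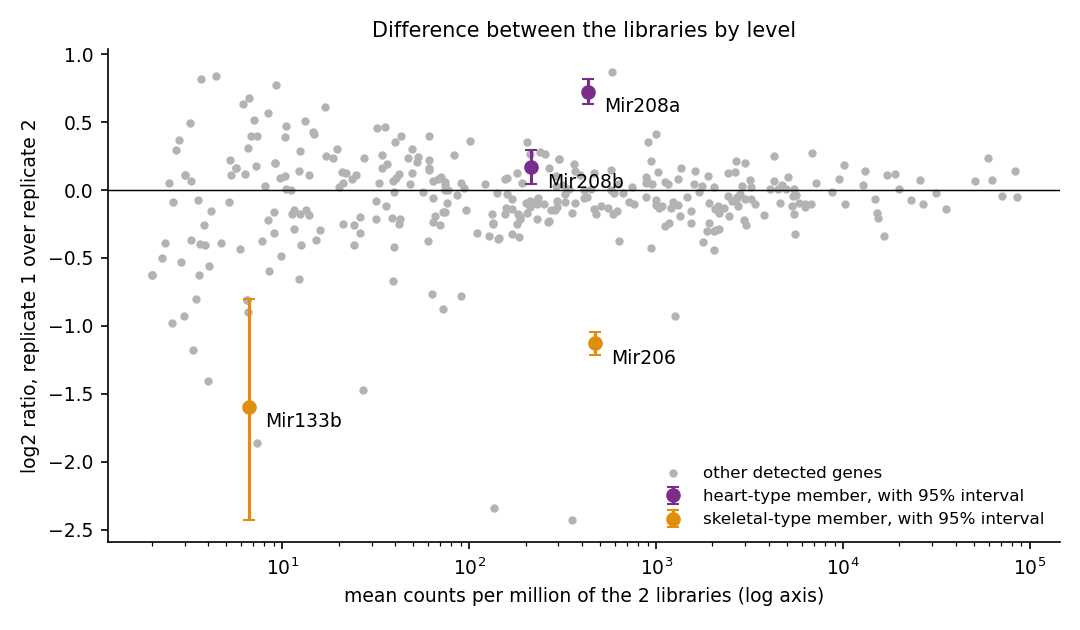
Log2 ratio of replicate 1 over replicate 2 against the mean level (log axis) for the 347 detected genes, with the 4 detected members in colour and exact 95% intervals. Heart-type Mir208a (0.73) and Mir208b (0.17) lie above 0, and skeletal-type Mir206 (-1.13) and Mir133b (-1.59) lie below it.

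The ratio of heart-type to skeletal-type reads within a library does not depend on the scaling between libraries. In replicate 1, Mir208a made up 64.6% of the 5295 reads of Mir208a and Mir206 (exact Clopper-Pearson 95% interval 63.3 to 65.9%). In replicate 2 it made up 33.5% of 3991 reads (32.1 to 35.0%). Reads of Mir208a were thus 1.82 times those of Mir206 in replicate 1 and 0.504 times in replicate 2. The odds ratio between the libraries was 3.62 (3.31 to 3.95, p = 4.82e-196, two-sided Fisher's exact test on reads). It combines the differences of Mir208a and Mir206 given above and is not separate support for them. Like the binomial test, Fisher's test here compares the reads of 2 libraries, holds counting error only and says nothing of conditions. With both genes of each type summed, the heart-type share was 71.9% and 44.5% (2.56 and 0.803 times the skeletal-type reads), and the odds ratio was 3.19 (2.95 to 3.45, p = 6.59e-195, Fisher's exact test). In CPM, the heart-type sum was 761 in replicate 1 and 525 in replicate 2, and the skeletal-type sum was 297 and 653.

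**Figure D3:**
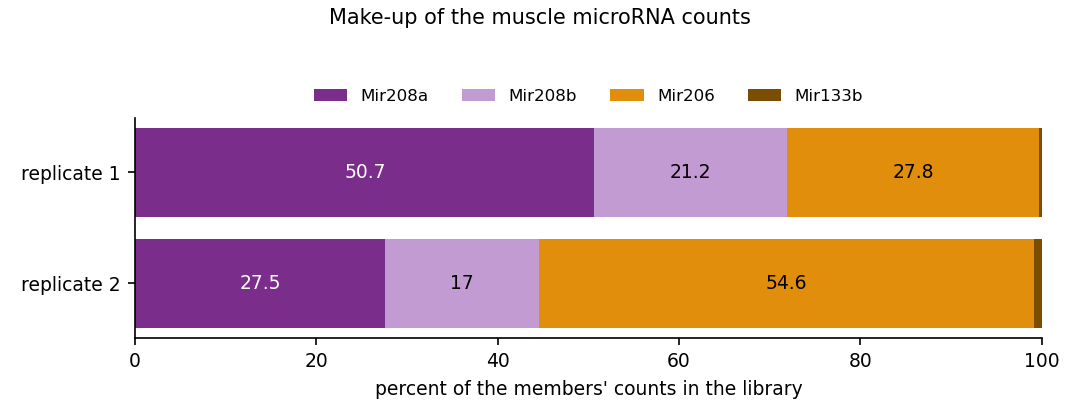
Percent of the members' counts held by each detected member in each library (6750 counts in replicate 1, 4858 in replicate 2). Mir208a fills 50.7% of the bar of replicate 1 and 27.5% of that of replicate 2, and Mir206 fills 27.8% and 54.6%.

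Genes of one type did not all keep a fixed ratio. All 6 pairs of the detected members were compared in this way after their values had been seen, with p-values adjusted over the 6. These p-values also hold counting error only, and the share of other gene pairs that would pass was not computed. Mir208a and Mir208b lie 26.6 kb apart on the same strand in neighbouring myosin genes. Mir208a was 2.38 times Mir208b in replicate 1 (2.24 to 2.54) and 1.62 times in replicate 2 (1.48 to 1.77), an odds ratio of 1.47 (1.32 to 1.64, adjusted p = 2.71e-12, Fisher's exact test). Mir206 and Mir133b lie 3.69 kb apart in one long noncoding RNA gene. Mir206 was 89.3 times Mir133b in replicate 1 (58.2 to 145) and 64.7 times in replicate 2 (47.6 to 90.4). That ratio was not shown to differ (odds ratio 1.38, 0.794 to 2.47, adjusted p = 0.245, Fisher's exact test), and the interval still allows a 2.47-fold difference. The 4 pairs of a heart-type with a skeletal-type gene had odds ratios from 2.46 (Mir208b and Mir206) to 4.99 (Mir208a and Mir133b), each with more of the heart-type gene in replicate 1 and an adjusted p of at most 4.41e-06 by Fisher's exact test. Each of them combines the differences of its genes given above, so these pairs are not separate support for those differences.

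Sequence copies divided the members exactly as detection did. A gene was said to have a copy where its hairpin shares 22 bases, on either strand, with a microRNA gene at another place. All 4 members without a copy (Mir206, Mir133b, Mir208a and Mir208b) were detected, and none of the 3 members with a row and a copy had a count. Over all genes with a hairpin sequence, 63 of 880 with a copy (7.16%) and 284 of 1014 without one (28.0%) were detected. Reads that matched several places were set apart in the tables and numbered 3856768 in replicate 1 and 2684057 in replicate 2, which is 30.0% and 31.8% of all reads. How many of them come from miR-1 and miR-133a cannot be read from the tables, so the zeros of Mir1a-1, Mir133a-1 and Mir133a-2 do not show that these microRNAs were absent.

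Mir133b holds an intermediate place. The first 21 of the 22 bases of miR-133b-3p also occur in the hairpins of Mir133a-1 and Mir133a-2, so only its last base tells it apart, and a read shortened by that base matches 3 genes. With a limit of 18 shared bases Mir133b counted among the genes with a copy as well. For miR-206-3p the longest start found in another hairpin is 10 bases, for miR-208a-3p and miR-208b-3p it is 9, and no other hairpin held any of the 6 printed strands whole. Whether the low level of Mir133b beside Mir206, or its difference between the libraries, follows from this was not tested. miR-1a-1-5p, the minor strand of Mir1a-1, shares at most its first 14 bases with another hairpin. No read of it was counted to Mir1a-1 in either library. Only annotated microRNA hairpins were searched, so whether its reads could be placed in the genome was not tested.

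The 4 genes with copies form 2 pairs of neighbours. Mir1a-1 (ENSMUSG00000070144.1, chromosome 2 at 180389048 to 180389124, plus strand) and Mir133a-2 (ENSMUSG00000065460.1, chromosome 2 at 180398379 to 180398482, plus strand) overlap no other annotated gene and lie 9.25 kb apart. Mir133a-1 (ENSMUSG00000065399.2, chromosome 18 at 10782909 to 10782976, minus strand) and Mir1a-2 (ENSMUSG00000106348.1, chromosome 18 at 10785481 to 10785552, minus strand) lie 2.50 kb apart in introns of Mir133a-1hg, and within an intron of Mib1 on the other strand. Each gene of a pair has its copy in the other pair. No row was matched to Mir1a-2, but Mir1b, annotated over it on the opposite strand, has one with 12 counts in replicate 1 and 11 in replicate 2. Of these, 7 and 9 lay on the strand of Mir1b, and 5 and 2 on that of Mir1a-2. For the 7 members with a row every count lay on the gene's own strand.

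Among other microRNAs of muscle, 4 genes were measured and 3 detected. Mir499, which lies in the myosin gene Myh7b and is known from heart and slow muscle, had 154 and 94 counts, or 24.2 and 22.8 CPM. Its level was 1.06-fold higher in replicate 1, with an interval from 0.814 to 1.38. Mir486, known from muscle and also from red cells, had 139 and 82 counts, or 21.8 and 19.9 CPM (1.10-fold, 0.828 to 1.46). Mir1b stood at 1.88 and 2.67 CPM (ratio of replicate 1 over replicate 2 of 0.705, 0.285 to 1.76), and Mir133c had 0 counts in both libraries. By the exact binomial test 0 of the 3 passed, where 47% of all detected genes did, and 0 had an unadjusted p under 0.05. The interval of Mir499 does not reach the 1.65-fold of Mir208a. The intervals of all 3 include no difference and also the 1.12-fold of Mir208b, so at these counts a difference of that size could have been missed.

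Some markers of other tissues also differed between the libraries, and the values of the marker lists stand here beside those of the members. Over all 347 detected genes 47% passed the exact binomial test. A share of passing markers near 47% is therefore not particular to a list. Of the hepatocyte list, 3 of 4 genes were detected and 1 passed: Mir122, the main microRNA of hepatocytes, had 111 CPM in replicate 1 and 601 in replicate 2. The list's summed level was 216 and 695 CPM, and no gene of it was at 0 in both libraries. The higher sum in replicate 2 rested on Mir122 alone, since Mir192 had 65.2 and 62.3 CPM, Mir194-2 37.3 and 31.3 CPM and Mir194-1 1.73 and 0.485 CPM. Of the microRNAs in Hox clusters, which mark position along the body, 6 of 6 were detected and 4 passed, all higher in replicate 2. Among them Mir196b had 44.7 and 226 CPM and Mir10b 868 and 1648 CPM, while Mir196a-1 (3.14 and 2.91 CPM) and Mir196a-2 (29.6 and 25.2 CPM) did not pass. The summed level, led by Mir10a, was 23442 and 25644 CPM. Blood markers had 4 of 4 genes detected, 2 higher in replicate 1 and 1 in replicate 2. Mir451a of red cells had 747 and 408 CPM and Mir144 from the same locus 278 and 232 CPM. Mir223 of myeloid cells had 697 and 740 CPM. It was only 1.06-fold higher in replicate 2 (1.01 to 1.11, adjusted p = 0.0271, exact binomial test). The summed level of the blood markers was 1763 and 1420 CPM.

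Neural markers had 5 of 10 genes detected, 2 of which passed, Mir128-1 and Mir128-2, both higher in replicate 2 and both with sequence copies. Their summed level was 463 and 558 CPM, Mir124a-1 and Mir9-2 were at 0 in both libraries, and Mir132 led the list at 222 and 239 CPM. Smooth muscle markers had 2 of 3 genes detected, both higher in replicate 2, but by less than the median difference of all genes, and Mir145b was at 0. Their summed level was 71258 and 73391 CPM. The log2 ratio of Mir143, replicate 1 over replicate 2, was -0.041. DESeq2's size factors shift the log2 ratio of the library sizes by -0.052, so the direction of Mir143 depends on the scaling. Of the 6 epithelial genes, 1 passed as higher in replicate 1 and 4 as higher in replicate 2. The epithelial sum was 1.04-fold higher in replicate 2 and Mir126a 1.10-fold higher in replicate 1. In the hepatocyte, Hox and blood lists not all genes lay on one side: the other hepatocyte genes, Mir196a-1 and Mir196a-2 had lower values in replicate 2, and Mir223 a higher one. The part of other tissues, of the pools and of library preparation in these differences was not tested, and with 1 library a pool these sources cannot be told apart.

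**Figure D4:**
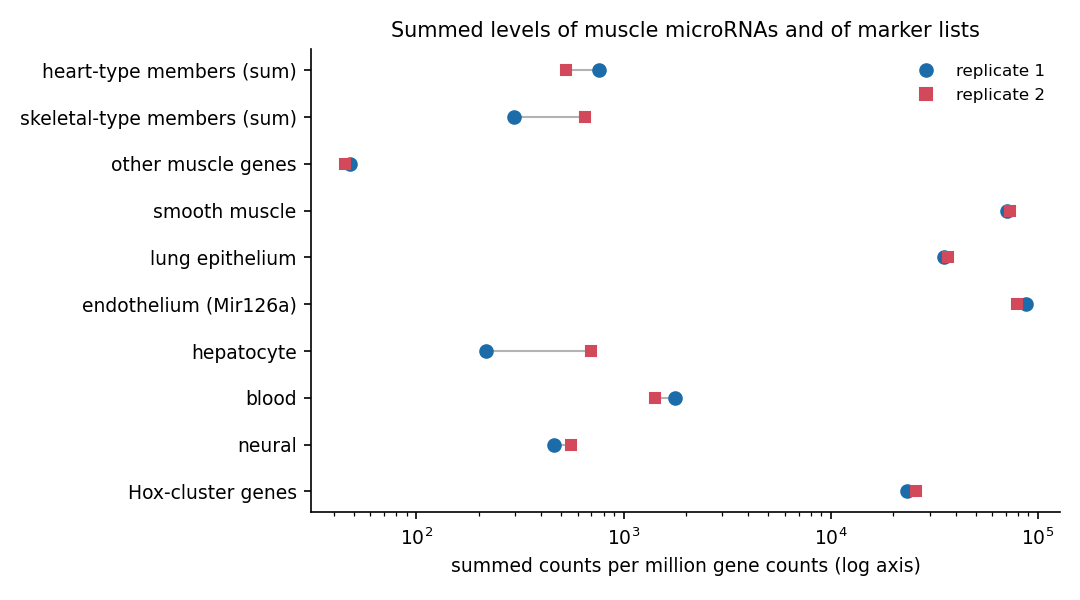
Summed level in CPM (log axis) of the heart-type members, the skeletal-type members and 8 marker lists in each library, with a line joining the 2 libraries. The hepatocyte list and the skeletal-type members have the longest lines, both with replicate 2 to the right, and the smooth muscle, epithelial and Hox lists have short ones.

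Of 191 other genes with a mean of at least 100 CPM, those whose log2 ratio of replicate 1 over replicate 2 came nearest to that of Mir206 (-1.13) were Mir10b (-0.93), Mir92b (-0.44) and Mir34c (-0.43). Nearest to Mir208a (0.73) were Mir451a (0.87), Mir181b-2 (0.41) and Mir7j (0.36). The likeness rests on 2 libraries and describes them only. After the first gene in each case the next ones lay at least 0.31 away on the log2 scale.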

How the data were processed

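For each library the authors deposited raw counts, 1 row per microRNA gene. They were made from an alignment to mm10 with annotation GENCODE M4, per the file headers; the aligner and the counter were not given there. Column 2, which equals column 3 (sense) plus column 4 (opposite strand) in all 1973 genes, was used throughout. CPM is the count over the total of gene rows, times 1e+06. Summary lines (unmapped, multiply mapped, outside genes) stayed out of totals and tests. Names, coordinates (1-based) and hairpins come from GENCODE M21 on mm10, matched by identifier without version (1894 of 1973), and mature sequences from RefSeq (GRCm38.p6).

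Levels and differences were computed in Python 3.11.15 with scipy 1.17.1. Between the libraries each gene with at least 10 counts in both was tested by a two-sided exact conditional binomial test against the totals of both libraries, adjusted by Benjamini-Hochberg over 347 genes with a threshold of 0.05. Ratios of members were compared by Fisher's exact test. The binomial step was tested on simulated counts that hold counting error only, so that check does not cover spread beyond counting error. A model with replicated groups was not possible with 1 group. edgeR 4.0.16 and DESeq2 1.42.0 in R 4.3.3 gave alternative scalings from the detected genes. Named are all members, their copies and overlapping genes, the other muscle genes, the leading and defining genes of each marker list, the 3 genes nearest to Mir206 and to Mir208a in log2 ratio, and the genes next to each member in level; Mir144, Mir128-1, Mir128-2, Mir145b, Mir192, Mir194-1, Mir194-2, Mir196a-1, Mir196a-2, Mir223 and genes that differed most were named after their values were seen. Members and lists were chosen with earlier results of these data known.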

Additional observations from a re-analysis of the deposited data

Results flagged for a closer look

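Opposite-strand reads, which are part of the counts used but were not compared on their own, exceeded the 3 counts that a count of 0 allows at 2 genes of the muscle list. At Mir1b they numbered 5 in replicate 1, on the strand where Mir1a-2 is annotated. At Mir486 they numbered 11 in replicate 1 and 7 in replicate 2, on the strand where Mir3107 is annotated, a gene to which no row was matched.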

How the results depend on the processing

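Of 78 alternative values, 72 stayed within the limits set for them and no direction changed. For the levels and the share of gene counts the limit was the SD of the 2 libraries. Leaving out 1 of 2 libraries always stays within that limit, so those values could not count as moved and show no stability. The log2 differences of Mir206, Mir208a, Mir208b and Mir133b were on the same side of the threshold under every scaling, strand and count minimum that gave a value. The odds ratio of Mir208a to Mir206 does not depend on the scaling. Sense-strand counts could not change it, since all counts of these genes lie on their own strand. With both genes of each type summed, the log2 odds ratio was 1.67 in place of 1.85. With a count minimum of 50, Mir133b was not tested and the number of members higher in replicate 2 was 1. With 18 shared bases, Mir133b counts as a copy, so 1 member with a copy was detected. Without the 10 most abundant genes of either library in the total, the mean levels in CPM became 14.0 for Mir133b, 995 for Mir206, 922 for Mir208a and 454 for Mir208b, since the divisor is smaller. Leaving out a replicate moved the members' share of gene counts between 0.106% and 0.118%. Without replicate 1, Mir206 was at 643 and Mir133b at 9.94 CPM, and without replicate 2 at 294 and 3.29 CPM; both moves exceed 1.5-fold for Mir133b, and the latter for Mir206. No paired analysis was possible because there is only 1 group. The depth limits Mir133b and Mir1b, which had at most 41 counts in a library.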
